A study of Penicillium oxalicum with 72 samples.

Results

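The comparison described here set hyphae of *Penicillium oxalicum* transferred to 2-hydroxyethyl cellulose (HEC) against hyphae transferred to medium with no carbon source (NC), both at 48 h after the transfer. Its members are 6 of the 72 libraries of the study, 3 of HEC and 3 of NC, chosen by the short name in each library's label. The study compared 24 groups of 3 libraries, in which the fungus met Avicel (AV), wheat bran (WB), methyl cellulose (MC), HEC, glucose (GLU) or NC for 4, 12, 24 or 48 h. All groups carry the same genetic background, strain Δ*PoxKu70*, labelled MuKu70, a deletion mutant of *PoxKu70* derived from strain HP7-1, so no wild-type strain was among them. In every group the hyphae had first grown on GLU and were then moved to the new medium. The longer wording in the labels of the HEC libraries names methyl cellulose, and the short name HEC was followed. One NC library used below, replicate 3 at 24 h, has 24 h in its short name and 4 h in the longer wording.

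HEC and MC are soluble ethers of cellulose, in which hydroxyethyl or methyl groups sit on the hydroxyls of the glucan chain, whereas AV is crystalline cellulose. Filamentous fungi take cellulose apart with endoglucanases (EGs), which cut inside the chain, cellobiohydrolases (CBHs), which release cellobiose from its ends, and lytic polysaccharide monooxygenases of family AA9, which cleave it oxidatively. Cellobiose and longer cellodextrins are then split by beta-glucosidases (BGLs) or taken up by cellodextrin transporters. Starving hyphae are known to recycle their own wall and cytoplasm and to form conidia. Medium without carbon is therefore a starvation control, not a repressing one.

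Levels are given in FPKM, the number of fragments per kilobase of a gene, corrected for how many fragments were mapped in the library. The 6 libraries listed 9462 to 9568 genes each, with FPKM summing to 1000513 to 1049262, and the 8898 genes whose FPKM averaged 1 or more across the whole series entered the tests. Absolute depth is unknown here, but weakly expressed genes move in steps that show how much FPKM 1 read was worth. The step was read from 52 to 66 of 300 such genes in each of the 6 libraries, those near the level of 1 read, and was 1.49 times larger in HEC replicate 3 and 1.51 times larger in NC replicate 1 than the mean of the other 4 libraries, which lay within 1.03 times of each other. The same 2 libraries held the highest level of *POX09827*, the most abundant transcript in 3 of the 6 libraries (*POX01764* was first in the other 3), which measured 22804, 42013 and 75471 FPKM in the HEC libraries and 74146, 28369 and 37797 FPKM in the NC libraries. Counts were therefore also made without both libraries. Whether the 2 features are connected was not tested.

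At 48 h, 751 of the 8898 genes (8.44%) were called different between HEC and NC, of which 441 (4.96%) were higher on HEC and 310 (3.48%) were lower. A call needed an unadjusted p of at most 0.05 in limma and a difference of at least 1 on the log2(FPKM + 1) scale, which is the scale of every fold change below and understates changes of weakly expressed genes. Rises were larger than falls. Among the called genes, 123 rose by 2 or more and 31 by 4 or more on the log2 scale, up to 8.0, whereas 18 fell by 2 or more, the largest of these being -2.78. The libraries of the 2 groups did not overlap in 741 of the 751 called genes, compared with 61.0% of all genes tested. FPKM fixes only a total, and the median gene sat at -0.22 on the log2 scale. After rescaling the libraries by the median of ratios, which brought that median to -0.01, 591 genes were called higher and 153 lower (79.4% higher against 58.7% before), and these included all 441 of the higher calls but only 153 of the 310 lower ones. Without HEC replicate 3 and NC replicate 1, 391 genes were called higher and 348 lower, among them 362 of the 441 and 264 of the 310.

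**Figure D1:**
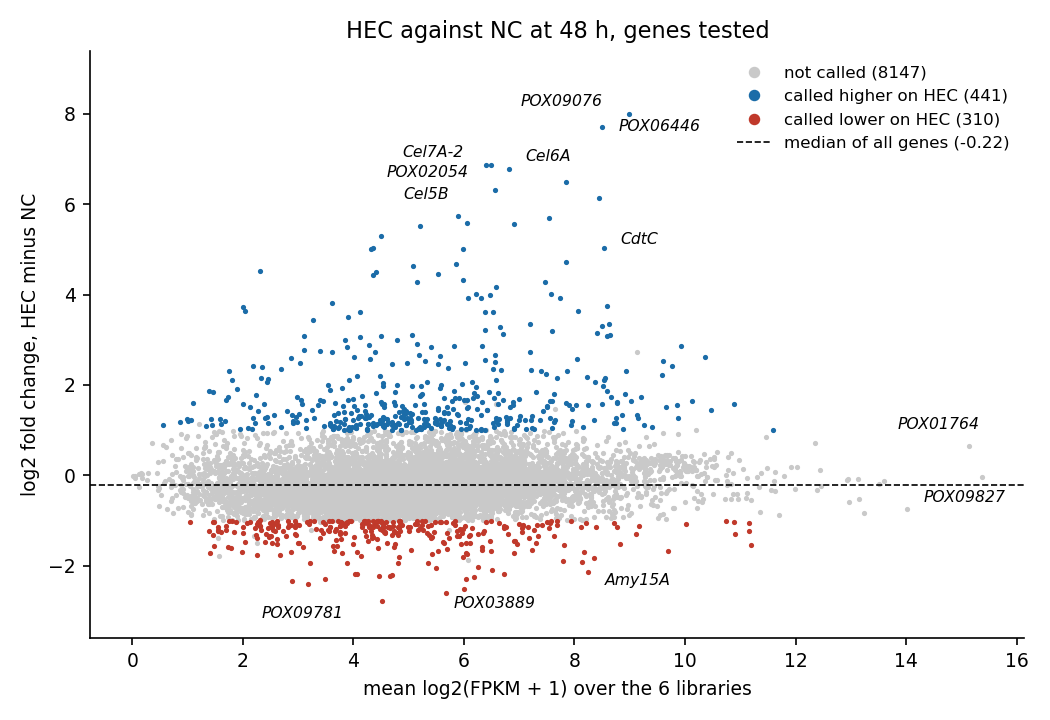
Log2 fold change (HEC minus NC at 48 h, on log2(FPKM + 1)) against the mean log2(FPKM + 1) of the 6 libraries, 1 point per gene tested. The 441 genes called higher reach 8.0, the 310 genes called lower reach -2.78, and the dashed line marks the median gene at -0.22.

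Both main CBH genes were among the strongest rises. *POX05587*/*Cel7A-2*, a family GH7 CBH, measured 1203, 966 and 642 FPKM on HEC and 6.2, 6.18 and 8.14 FPKM on NC. *POX04786*/*Cel6A*, the GH6 CBH, measured 1475, 1218 and 912 FPKM on HEC and 11.1, 9.01 and 9.3 FPKM on NC. In both genes the lowest HEC library was far above the highest NC library. The log2 fold changes were 6.87 ± 0.22 (± SE, as for all fold changes below; limma with Benjamini-Hochberg adjustment over all genes tested, adjusted p = 1.9e-06) for *Cel7A-2* and 6.78 ± 0.17 (adjusted p = 1.3e-06) for *Cel6A*. The remaining CBH gene, *POX02490*/*Cel7A-1*, stayed weak, with 1.87, 2.14 and 0.85 FPKM on HEC and 0.85, 1.2 and 0.88 FPKM on NC, and the libraries overlapped. The 3 CBH genes together made up 0.208 ± 0.0578% (SD, n = 3) of summed FPKM on HEC and 0.00174 ± 9.84e-05% (SD, n = 3) on NC.

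Of the 11 EG genes tested, 7 were called higher and none lower (63.6% called; median log2 fold change 1.98, against -0.22 over all genes tested). *POX01166*/*Cel5B* led them, with 1126, 804 and 658 FPKM on HEC and 9.48, 11.1 and 8.54 FPKM on NC and a log2 fold change of 6.31 ± 0.19 (adjusted p = 1.9e-06). *POX05570*/*Cel45A* measured 346, 279 and 260.2 FPKM against 8.22, 10.7 and 12.9 FPKM on NC. *POX01896*/*Cel5C* measured 303, 248 and 300 FPKM against 11.8, 15.04 and 12.8 FPKM. Every HEC library of these genes exceeded every NC library, and the log2 fold changes were 4.68 ± 0.17 for *Cel45A* and 4.33 ± 0.12 for *Cel5C*. Rises were also called for *POX05571*/*Cel7B* (4.63 ± 0.15), *POX06147*/*Cel5A* (3.11 ± 0.20), the xyloglucan-specific EG gene *POX06983* (1.98 ± 0.13) and *POX02740* (1.67 ± 0.20). *POX06147*/*Cel5A* was the least even of these between replicates, at 132, 96.5 and 71.05 FPKM on HEC. The EG genes not called were *POX00963*, whose log2 fold change of 0.69 lay below the limit of 1, *POX04137* (-0.07), *POX07535*/*Cel12A* (-0.20) and *POX01206* (-0.26).

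Among the 5 genes for AA9 monooxygenases and swollenin, an expansin-like protein that loosens cellulose, 3 were called higher and none lower. The AA9 gene *POX02308*/*Cel61A* measured 1242, 1015 and 1133 FPKM on HEC. On NC it measured 161, 59.1 and 154 FPKM, so that it was already well expressed without carbon, and its log2 fold change was 3.30 ± 0.35 (adjusted p = 0.00059). The swollenin gene *POX08485* measured 487, 417 and 328 FPKM on HEC and 28.5, 16.2 and 22 FPKM on NC, a log2 fold change of 4.16 ± 0.21. The AA9 gene *POX08897* went from 2.4, 2.35 and 2.86 FPKM on NC to 131, 106 and 102 FPKM on HEC, the largest log2 fold change of the list at 5.01 ± 0.12. The other AA9 genes gave -0.40 (*POX05968*) and -0.58 (*POX09256*), neither of them called.

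Genes for the uptake of cellodextrins were higher on HEC too. Of the 3 cellodextrin transporter genes, 2 were called higher. *POX06051*/*CdtC* measured 2493, 2168 and 1736 FPKM on HEC and 42.99, 68.8 and 86.8 FPKM on NC. *POX05915*/*CdtD* measured 228, 179 and 199 FPKM on HEC and 71.1, 61.6 and 71.2 FPKM on NC. Neither gene overlapped between the groups, and the log2 fold changes were 5.03 ± 0.25 (adjusted p = 1.7e-05) and 1.55 ± 0.12 (adjusted p = 0.00013). The third gene, *POX01335*/*CdtG*, was lower in each HEC library than in any NC library, but its log2 fold change of -0.55 was not called. The 3 transporters together held 0.229 ± 0.0417% of summed FPKM on HEC and 0.0158 ± 0.00237% on NC (SD, n = 3 each).

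Of the 9 BGL genes, 2 were called higher and none lower. The intracellular GH1 enzyme *POX06079* measured 346, 257 and 199 FPKM on HEC and 15.6, 15.5 and 17.8 FPKM on NC, a log2 fold change of 3.92 ± 0.19 (adjusted p = 1.4e-05). The putative GH3 enzyme *POX08491* measured 79.4, 73.1 and 57.5 FPKM on HEC and 18.2, 20.4 and 19.4 FPKM on NC, a log2 fold change of 1.79 ± 0.13. *POX06835*/*Bgl1*, a family GH3 BGL, was above NC in every HEC library but only by 0.56 on the log2 scale, short of a call. After rescaling, *POX03062* and *POX03641* were called higher as well, which made 4 of 9. Without HEC replicate 3 and NC replicate 1, the higher calls numbered 2 CBH, 7 EG, 3 AA9 and swollenin, 2 cellodextrin transporter and 3 BGL genes, and no gene of these lists was called lower.

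**Figure D2:**
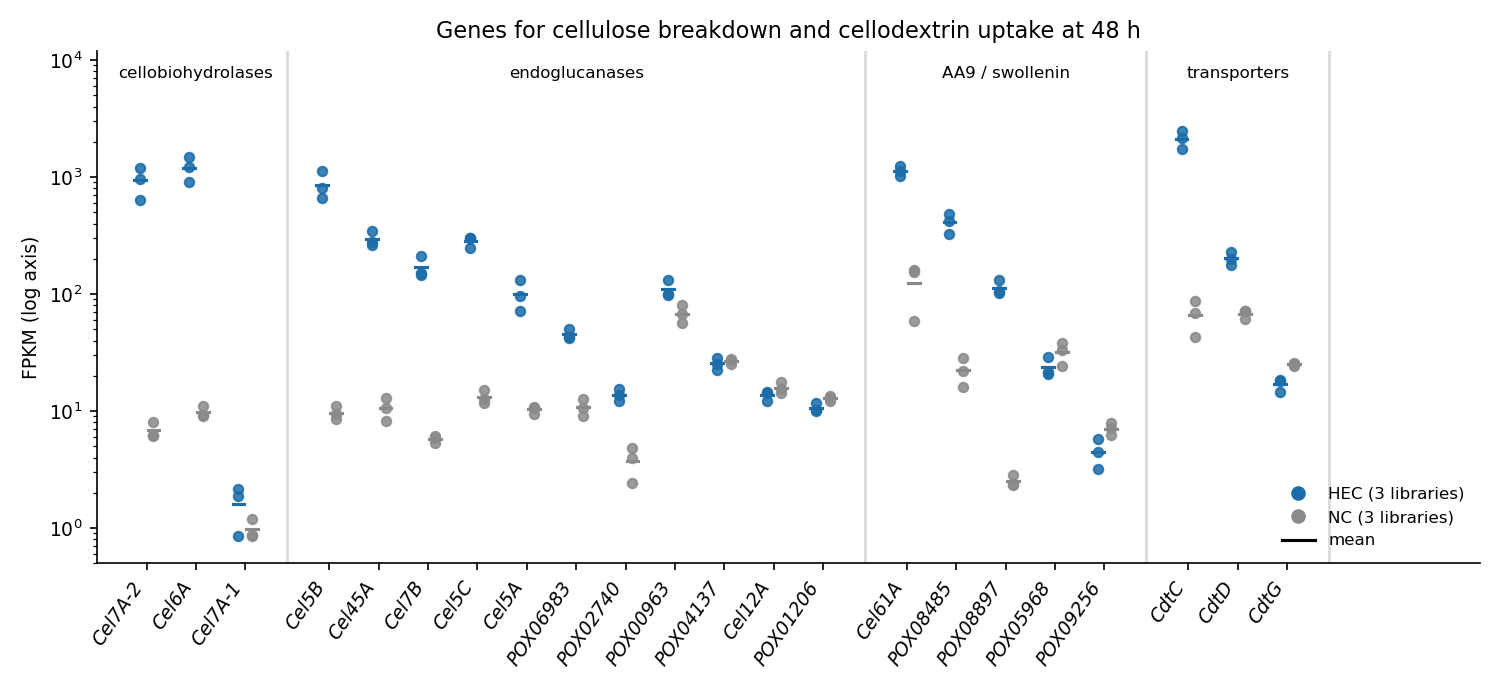
FPKM on a log axis at 48 h for the genes of cellulose breakdown and cellodextrin uptake; each point is a library and each bar the mean of 3 libraries of HEC (blue) or NC (grey). The groups stand clear of each other from *Cel7A-2* and *Cel6A* through *CdtD* where a call was made, while *Cel7A-1*, *POX04137* and *Cel12A* overlap.

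Some genes for enzymes that cut the backbones of xylan and mannan were also higher. Of 10 endoxylanase genes, 3 were called higher and none lower. *POX08484*/*Xyn11B* measured 226, 192 and 174 FPKM on HEC and 43.3, 46.9 and 44.6 FPKM on NC, a log2 fold change of 2.1 ± 0.11 (adjusted p = 2.3e-05). *POX06783*/*Xyn11A* (2.05 ± 0.21) and *POX00063*/*Xyn10A* (2.36 ± 0.23) were lower in level, the latter with 17.4, 13.5 and 10.6 FPKM on HEC. Of 7 mannan enzyme genes, the endomannanase *POX01937* measured 147, 112 and 98.8 FPKM on HEC and 18, 25.8 and 22.7 FPKM on NC. It and the putative beta-mannosidase *POX01961* were called higher, with log2 fold changes of 2.37 ± 0.18 and 2.62 ± 0.20. Without HEC replicate 3 and NC replicate 1, the higher calls were 4 endoxylanase and 2 mannan enzyme genes. Of 32 genes for enzymes that remove xylan and arabinan side chains, 1 was called higher and 4 lower, and only 1 of the lower calls, the putative alpha-glucuronidase *POX04275* (-1.30 ± 0.15), was also made after rescaling.

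Starch enzymes were lower on HEC. Of 13 genes tested, 7 were called lower and none higher (median log2 fold change -1.12), 6 of them also after rescaling and 7 also without HEC replicate 3 and NC replicate 1. The alpha-amylase gene *POX09352*/*Amy13A* measured 471, 282 and 736 FPKM on HEC and 1814, 1402 and 1275 FPKM on NC. The glucoamylase gene *POX01356*/*Amy15A* measured 148, 76.6 and 257 FPKM on HEC and 709, 701 and 519.5 FPKM on NC. HEC replicate 3 was the highest HEC library for both and still lay below every NC library. Their log2 fold changes were -1.68 ± 0.32 (adjusted p = 0.0043) and -2.15 ± 0.38 (adjusted p = 0.0034). The putative alpha-glucosidase genes *POX03889* (-2.30 ± 0.24) and *POX06242* (-1.50 ± 0.27) also fell. *POX03890*/*AmyR*, which in *Aspergillus* encodes the activator of amylase genes, measured 25.8, 21.2 and 28.6 FPKM on HEC and 50.4, 94.02 and 64.9 FPKM on NC, a log2 fold change of -1.40 ± 0.22 (adjusted p = 0.0022). Summed over the list, starch enzymes took 0.106 ± 0.0312% of FPKM on HEC and 0.306 ± 0.0405% on NC (SD, n = 3 each).

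Among enzymes that act on the fungus's own wall, 3 of 20 chitin enzyme genes tested were called lower and 1 higher. The putative GH3 beta-N-acetylhexosaminidase *POX07573*, an enzyme type that trims chitin oligomers, measured 38.9, 28.7 and 30.7 FPKM on HEC and 169.5, 155 and 150 FPKM on NC, a log2 fold change of -2.25 ± 0.13 (adjusted p = 2.9e-05). The chitin-binding AA11 gene *POX01381* (-1.28 ± 0.11) and the putative chitosanase *POX08903* (-1.18 ± 0.21) were the other lower calls, the last of which was not made after rescaling. The single higher call, the putative GH18 chitinase *POX09387*, rests on uneven libraries. It measured 2710.5, 2123 and 2224 FPKM on HEC and 2182, 300.1 and 988 FPKM on NC, its groups overlapped, and the adjusted p was 0.084. Its log2 fold change of 1.43 ranged from 0.67 without NC replicate 2 to 2.1 without NC replicate 1, and leaving out NC replicate 1 was the only omission of a single library that kept the call. The most abundant chitinase transcript, *POX00089*, was not called, with 13591, 13638 and 11355 FPKM on HEC and 19490.5, 23031 and 21733 FPKM on NC and a log2 fold change of -0.74. Of 31 fungal wall glucan enzyme genes, 3 were called lower, none of them after rescaling. Their share called was 9.7%, against 8.44% of all genes tested.

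**Figure D3:**
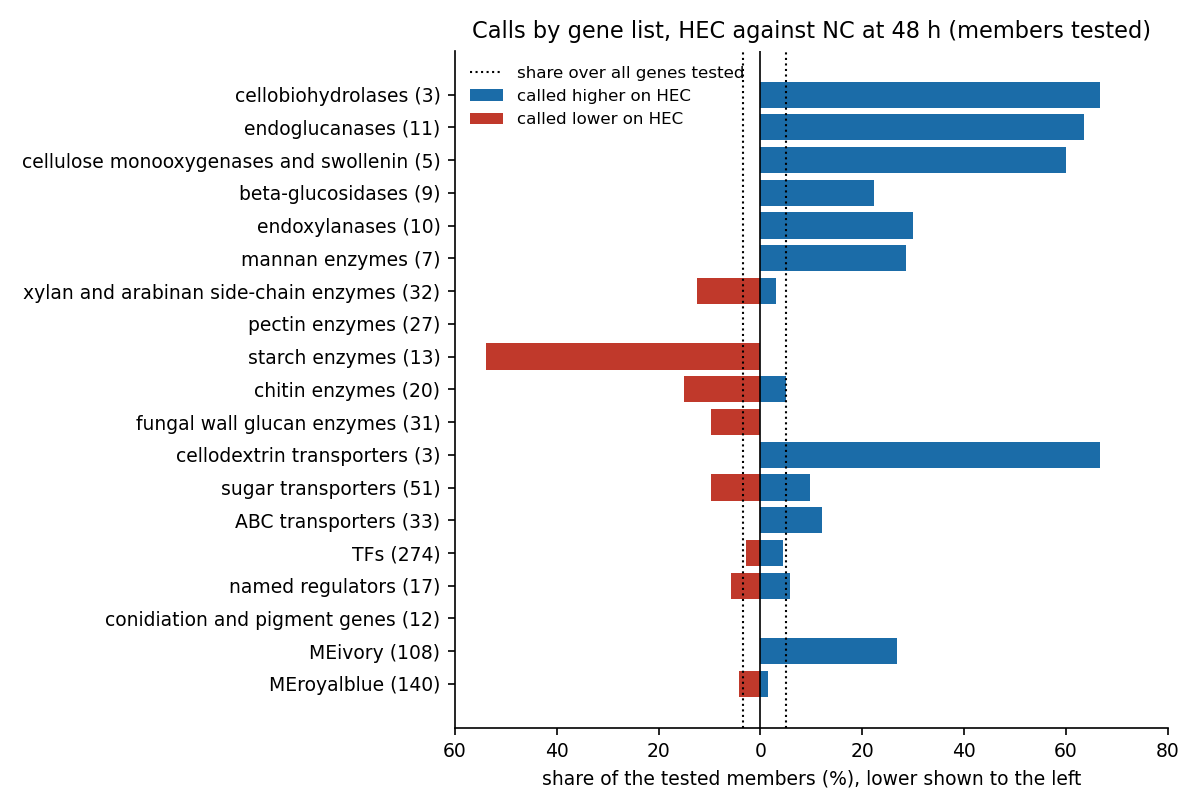
Share of the tested members of each list (number in brackets) called higher on HEC, to the right, or lower, to the left, at 48 h; dotted lines mark the shares over all genes tested, 4.96% and 3.48%. Bars for genes of cellulose breakdown and uptake extend far to the right of the dotted line, the starch bar extends to the left, and the pectin and conidiation lists have no bar.

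The transporter genes as a whole moved in both directions. The study had drawn its transporter lists from genes it called against NC in these libraries. Of 51 sugar transporter genes, 5 were called higher and 5 lower, 19.6% in all against 8.44% of all genes tested. The counts were 7 higher and 3 lower after rescaling, and 4 higher and 8 lower without HEC replicate 3 and NC replicate 1. Besides *CdtC* and *CdtD*, the rises included *POX03948*, annotated as a general alpha-glucoside transporter, with 118, 177 and 145 FPKM on HEC and 36.95, 35.8 and 37.2 FPKM on NC (1.95 ± 0.14). The falls included *POX01317*, the most abundant of the falling sugar transporters, with 1607, 1086 and 1497 FPKM on HEC and 3896, 4445 and 3672 FPKM on NC (-1.53 ± 0.17), and *POX03742* (-1.74 ± 0.14). Of 167 other genes of the major facilitator superfamily, 20 were called higher and 14 lower (20.4%), and 2 of this list were called lower after rescaling. *POX08492* measured 261, 352 and 166 FPKM on HEC and 4.6, 4.83 and 3.84 FPKM on NC, the largest rise of the list at 5.52 ± 0.25. *POX01989* measured 75.5, 131 and 102 FPKM on HEC and 3.56, 3.84 and 3.05 FPKM on NC (4.5 ± 0.19). In both genes the groups were far apart. Of 33 ABC transporter genes, 4 were called higher and none lower, 12.1% in all against 8.44% of all genes tested. The largest rise was that of *POX03597* (3.99 ± 0.38), at 205, 535 and 406 FPKM on HEC and 13.97, 22.5 and 30.9 FPKM on NC.

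Of 274 transcription factor (TF) genes tested, 12 were called higher and 8 lower, a combined 7.3%, against 8.44% over all genes. The list holds TF genes that the study had called different from NC on some medium in these same libraries. These shares are therefore no independent comparison. After rescaling, 17 were called higher and 3 lower. Of 17 regulators named in the study, 1 was called higher and 1, *AmyR*, lower. The riser was *POX08292*/*MBF1*, a multiprotein bridging factor, with 615, 898 and 731 FPKM on HEC and 186, 220.01 and 199 FPKM on NC and a log2 fold change of 1.87 ± 0.15 (adjusted p = 0.00016). *POX01960*/*ClrB*, an activator of cellulase genes in related fungi, measured 77.1, 54.6 and 59.6 FPKM on HEC and 32.9, 36.97 and 39.1 FPKM on NC. The groups did not overlap, but the log2 fold change of 0.78 ± 0.14 was below the limit and was called only after rescaling. *POX05324*/*XlnR*, an activator of xylanase genes, gave -0.47 ± 0.12, and *POX07254*/*CreA*, the carbon catabolite repressor, gave 0.45 ± 0.19, with neither called. The largest TF rise was that of the Zn2Cys6 gene *POX07938*, with 616, 1018 and 916 FPKM on HEC and 49.9, 36.2 and 85.9 FPKM on NC (3.93 ± 0.31). The C2H2 gene *POX06396* (2.73 ± 0.30) and the Zn2Cys6 gene *POX09083* (2.64 ± 0.35) followed.

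Conidia are the other cell type that such cultures can hold. None of 12 conidiation and pigment genes was called in either direction, against 8.44% of all genes tested, and the list is too short to show a difference from that share. Their median log2 fold change was 0.04, against -0.22 over all genes tested. *POX06534*/*BrlA*, the central regulator of conidiation, measured 155, 122 and 147 FPKM on HEC and 177, 121 and 118 FPKM on NC. *POX07025*/*AbaA*, which acts after it, measured 23.6, 20.4 and 22.6 FPKM on HEC and 30.3, 26.1 and 21.4 FPKM on NC. Both overlapped between the groups, and no gene of the list was at 0. The 12 genes summed to 1.83 to 2.31% of FPKM on HEC and 1.88 to 2.68% on NC, and their part in the other results was not tested. In RNA from whole cultures, fewer cells of a type and less RNA per cell cannot be told apart.

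In central carbon metabolism, 1 of 11 rate-limiting enzymes of glycolysis and the TCA cycle was called, a share of 9.1%, against 8.44% over all genes. The study had named these enzymes among its own calls against NC, so the shares are no independent comparison. The citrate synthase gene *POX01075* measured 597, 818 and 788 FPKM on HEC and 158, 172 and 229.7 FPKM on NC, a log2 fold change of 1.98 ± 0.17 (adjusted p = 0.00028). A second citrate synthase gene, *POX04356*, gave 0.35 ± 0.10 and was not called. The isocitrate dehydrogenase genes *POX06270* (0.68 ± 0.08) and *POX09065* (0.65 ± 0.09) and the phosphofructokinase gene *POX08888* (-0.64 ± 0.08) did not overlap between the groups but stayed short of the limit of 1.

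The study grouped genes into co-expression modules on means over these libraries, so the modules are no independent evidence of direction. Of 108 genes tested of the module that holds the cellulase genes, MEivory, 29 were called higher and none lower (26.9%), with a median log2 fold change of 0.29, and 31 were called higher without HEC replicate 3 and NC replicate 1. The module includes *POX09827*, and its share of summed FPKM was 5.66 ± 2.33% on HEC and 4.96 ± 2.27% on NC (SD, n = 3 each). With *POX09827* left out, the share was 1.2% on HEC and 0.393% on NC. Of the 5 consecutively numbered MEivory genes *POX03927* to *POX03931*, 4 were called higher. *POX03930*, whose annotation differs between the text and the tables of the study, measured 57.8, 31.2 and 34.05 FPKM on HEC and 6.91, 2.48 and 3.76 FPKM on NC (3.0 ± 0.33), and *POX03929* gave 2.77 ± 0.23. *POX03927* (1.23 ± 0.31) was weak, and its log2 fold change of 0.91 without HEC replicate 1 was not called. Of 140 tested genes of a further module, MEroyalblue, 2 were called higher and 6 lower, 5.7% in all against 8.44% of all genes tested. The balance turned to 6 higher and 3 lower after rescaling, and the counts were 5 and 7 without HEC replicate 3 and NC replicate 1.

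The largest rises of all belonged to genes without an annotation in the sources used here. *POX09076* measured 6154, 10308 and 8348 FPKM on HEC and 23.5, 28.2 and 43.2 FPKM on NC, a log2 fold change of 8.0 ± 0.25 (adjusted p = 1.9e-06). *POX06446* measured 4195, 6978 and 4813 FPKM on HEC and 21.1, 27.1 and 23.6 FPKM on NC, a log2 fold change of 7.71 ± 0.19. In both genes the lowest HEC library stood far above the highest NC library. Groups without overlap were a condition for naming the largest rises too, so this separation is no added evidence. *POX02054* followed at 6.88 ± 0.19, with 1130.2, 699.98 and 1150.5 FPKM on HEC and 7.01, 7.62 and 7.12 FPKM on NC. Further rises were those of *POX08478* (6.48 ± 0.22), *POX08822* (6.15 ± 0.31), which reached 1992 to 3560.2 FPKM on HEC, and *POX06033* (5.56 ± 0.24), which reached 644 to 1124 FPKM. *POX00805* was uneven on NC, at 4.68, 40.8 and 72.4 FPKM, against 885, 1809 and 1519 FPKM on HEC (5.70 ± 0.84).

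The largest falls were smaller than the largest rises. *POX09781* measured 6.97, 12.3 and 5.37 FPKM on HEC and 33.8, 92.2 and 67.05 FPKM on NC, a log2 fold change of -2.78 ± 0.39 (adjusted p = 0.0014), and its numbered neighbour *POX09782* gave -2.40 ± 0.19. *POX05818* measured 20.9, 23.5 and 15.2 FPKM on HEC and 60.7, 285 and 113 FPKM on NC (-2.62 ± 0.49). NC replicate 1 was the lowest NC library for *POX09781*, *POX05818* and *POX00376* (-2.30 ± 0.57). Groups without overlap were a condition for naming the largest falls, so their separation is no added evidence. All of the 12 largest falls named by rule were also called after rescaling and without HEC replicate 3 and NC replicate 1.

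Called genes also stood next to each other in the numbering of the gene models. In 4 stretches of 4 consecutive numbers all genes were called higher, and in 1 all were called lower. *POX02054* to *POX02057* rose by 1.83 to 6.88 on the log2 scale. *POX07862* to *POX07865*, of which *POX07863* and *POX07864* are facilitator transporters, rose by 3.73 to 5.74. *POX08821* to *POX08824* rose by 2.07 to 6.15. None of these genes overlapped between the groups, and *POX07865* was all but silent on NC, at 0.06, 0.04 and 0.01 FPKM. *POX04022* to *POX04025* rose by 1.16 to 2.42, but 1 of them overlapped, and without HEC replicate 3 and NC replicate 1 only *POX04025* (2.42 ± 0.43 in all libraries) was called. Leaving out NC replicate 1 alone brought *POX04022* to 0.76. *POX04866* to *POX04869* fell together, by log2 fold changes of -2.51 to -1.94. *POX04867*, for example, measured 30.9, 24.6 and 22.7 FPKM on HEC and 169, 128 and 163 FPKM on NC. The distance between these genes on the genome was not analysed here.

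The difference between HEC and NC at 48 h was then set against that at 24 h, in 1 model with an interaction term over 12 libraries. It differed in 324 genes (3.64% of those tested), 180 with a larger value at 48 h and 144 with a smaller one. The balance turned to 146 larger and 166 smaller after rescaling, and only 80 larger and 87 smaller passed with the adjusted p. Without NC replicate 3 at 24 h, whose label words disagree, the counts were 151 and 116. The difference grew for both strongly expressed CBH genes. *Cel6A* measured 68.2 to 82.9 FPKM on HEC and 7.11 to 11.3 FPKM on NC at 24 h, well below its 48 h level on HEC, and its fold change was larger at 48 h by 3.81 ± 0.26 on the log2 scale (adjusted p = 5.9e-06). For *Cel5A* the increase was 2.32 ± 0.30 (adjusted p = 0.0025), for *Cel7A-2* 1.28 ± 0.29 (adjusted p = 0.033) and for the endoxylanase gene *Xyn11B* 1.65 ± 0.15 (adjusted p = 0.00011). *Cel61A* went the other way, with 705 to 1355 FPKM on HEC and 21.8 to 30.3 FPKM on NC at 24 h, and the interaction was -1.94 ± 0.47 (adjusted p = 0.048).

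Genes of the runs that start at *POX02054* and *POX07862* had another time course. *POX02056* of the first run is not among the genes flagged below for a changed difference. *POX02054* measured 2086 to 2574 FPKM on HEC and 1240.2 to 2307 FPKM on NC at 24 h, so that the groups overlapped there, and at 48 h only the HEC libraries were still high. *POX07862* gave the same picture, with 620.3 to 796 FPKM on HEC and 429 to 732 FPKM on NC at 24 h. The interaction was 6.48 ± 0.32 for *POX02054* (adjusted p = 6.1e-07) and 5.47 ± 0.30 for *POX07862* (adjusted p = 1.3e-06). *POX02605* (4.95 ± 0.24) and *POX06307* (4.76 ± 0.43), which also rose at 48 h, were likewise well expressed on both media at 24 h. No starch enzyme gene was called in the interaction (0 of 13), against 3.64% of all genes tested. A list of 13 is too short to show a difference from that share. At 4 h *Cel6A* measured 225 to 518 FPKM and at 12 h 35.4 to 91.1 FPKM on HEC, so the 48 h level followed a trough.

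**Figure D4:**
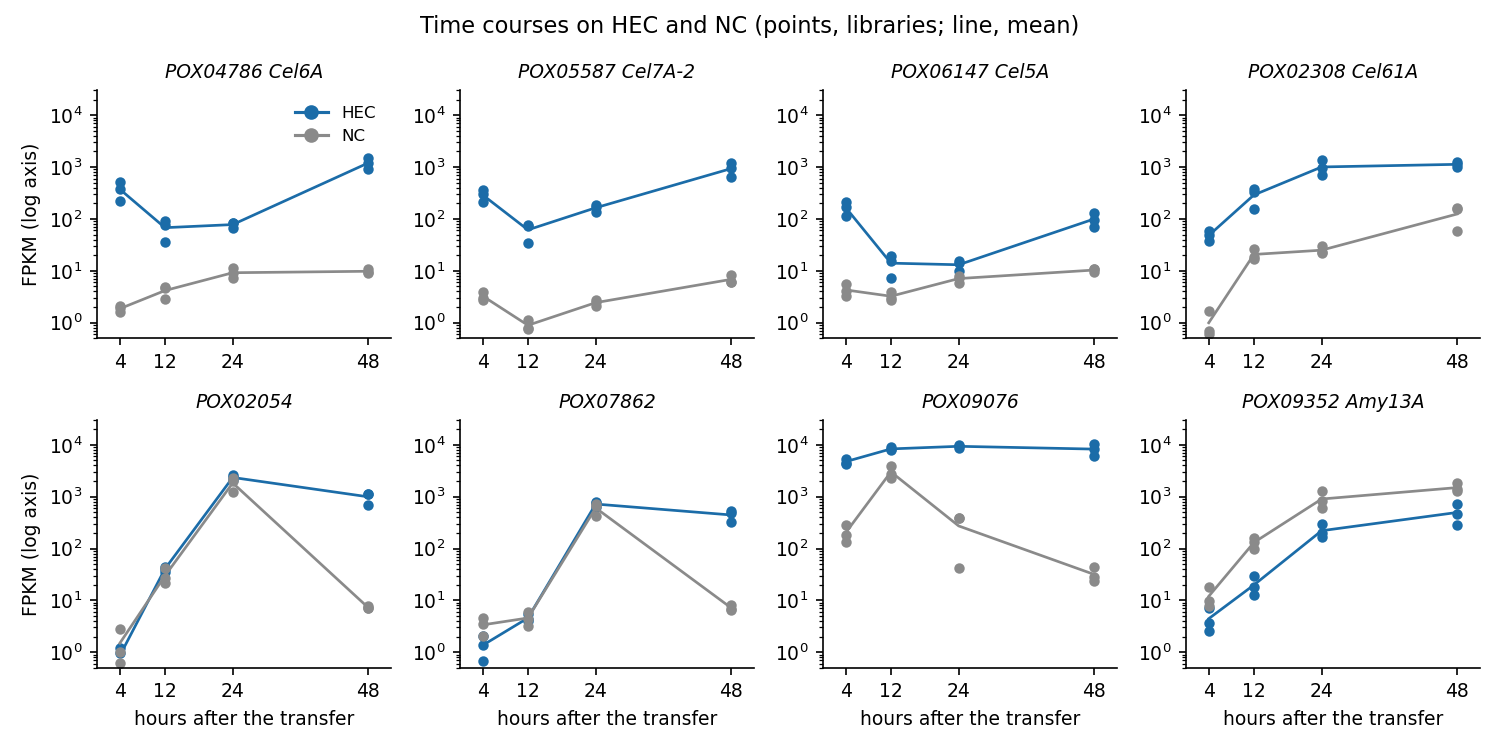
FPKM on a log axis against hours after the transfer for 8 genes on HEC (blue) and NC (grey); points are libraries, 3 per time and medium, and lines join the means. *Cel6A*, *Cel7A-2* and *Cel5A* dip after 4 h and rise again by 48 h on HEC, *POX02054* and *POX07862* coincide on both media at 24 h and separate at 48 h, and *Amy13A* lies higher on NC.

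HEC was next compared directly with MC at 48 h, the 2 soluble ethers in the same amount and at the same time. The 2 media differed in 701 genes (7.88%), 526 higher on HEC and 175 lower, 75% higher. After rescaling, the counts were 322 and 245, 56.8% higher, and the median gene moved from 0.21 to near 0. The HEC libraries are the same as those set against NC. In the MC libraries 1 read was worth 1.17 to 1.41 times as much FPKM as in the 4 libraries with the finest steps. The cellulase genes were far higher on MC. *Cel6A* measured 38891, 31353 and 42615 FPKM on MC, and the log2 fold change of HEC against MC was -4.98 ± 0.20 (adjusted p = 6.1e-07). *Cel7A-2* measured 27541, 26146 and 30519 FPKM on MC (-4.95 ± 0.22), and the intracellular BGL *POX06079* measured 10024, 9786 and 9977 FPKM (-5.25 ± 0.19). All 3 CBH genes and 7 of 11 EG genes were called lower on HEC than on MC, and so were 87 of 108 genes of MEivory, with none higher. Together the CBH genes held 6.44 ± 0.659% of summed FPKM on MC (SD, n = 3), against 0.208% on HEC.

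Other genes that separated HEC from NC were not called between HEC and MC. *POX09076* measured 6246, 7568 and 7843 FPKM on MC, and its difference from HEC was 0.17 with a 95% interval of -0.29 to 0.64 on the log2 scale. The citrate synthase gene *POX01075* measured 771, 816 and 763 FPKM on MC, a difference of -0.11 (95% interval -0.41 to 0.20). *MBF1* differed by 0.06 (95% interval -0.28 to 0.40) and *Cel61A* by -0.54 (95% interval -0.95 to -0.12). None of these reached the limit of 1, and all 4 intervals lie within 1 in either direction. The interval of *Cel61A* is negative throughout, on the side of a lower level on HEC. These intervals are without rescaling, which moved the median gene from 0.21 to 0.0023, and rescaled intervals are not given here. In contrast, *POX02054*, which also separated HEC from NC, measured 2.3, 1.81 and 1.88 FPKM on MC and was higher on HEC by 8.34 ± 0.18. *POX07862* to *POX07865* were higher on HEC by between 3.75 and 6.47. *Amy13A* was lower still on MC, where it measured 10.2, 10.2 and 10.9 FPKM, and 6 of 13 starch enzyme genes were called higher on HEC than on MC. Of 20 chitin enzyme genes, 10 were called higher on HEC than on MC and none lower. Over all 8898 genes tested, 526 were called higher, or 322 after rescaling, and the starch and chitin counts are without rescaling.

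HEC and AV differed in 574 genes at 48 h (6.45%), 330 higher on HEC and 244 lower, and rescaling left the counts at 332 and 243. The cellulase genes were again higher on the other medium. *Cel6A* measured 4202, 3121 and 4359.7 FPKM on AV, and the log2 fold change of HEC against AV was -1.71 ± 0.20 (adjusted p = 0.00058). *Cel7A-2* measured 3186, 2313 and 3596 FPKM on AV (-1.72 ± 0.25). *CdtD* measured 1713, 1756 and 1928 FPKM on AV, more than on MC or HEC, with a log2 fold change of -3.16 ± 0.12. On HEC, 8 of 11 EG genes and 8 of 10 endoxylanase genes were called lower than on AV. *Xyn11B* gave -3.02 ± 0.14 and *Xyn10A* gave -4.80 ± 0.18. *Cel61A* did not pass, with a difference of -0.27 and a 95% interval of -0.67 to 0.14.

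The widest contrasts with AV were sought only among genes already called between HEC and NC, and those lower on HEC belonged to genes without annotation. *POX06513* measured 2253, 2395 and 2483 FPKM on AV against 2.7, 2.08 and 2.22 FPKM on HEC, a log2 fold change of -9.48 ± 0.10. *POX03095* (-8.06 ± 0.10) and *POX07516* (-7.59 ± 0.23) had the same direction, and all of these also fell against NC, in a comparison that shares the HEC libraries. On the other side, the facilitator transporter gene *POX08492* was higher on HEC than on AV by 6.13 ± 0.24. *POX02054* measured 966, 994 and 338 FPKM on AV and differed from HEC by 0.49 (95% interval -0.43 to 1.42), which was not called but leaves room for a difference above 1. *POX09076* differed by 0.48 (95% interval -0.06 to 1.02). The highly expressed *POX09827* measured 724, 904 and 538 FPKM on AV, far below every HEC and NC library at 48 h.

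**Figure D5:**
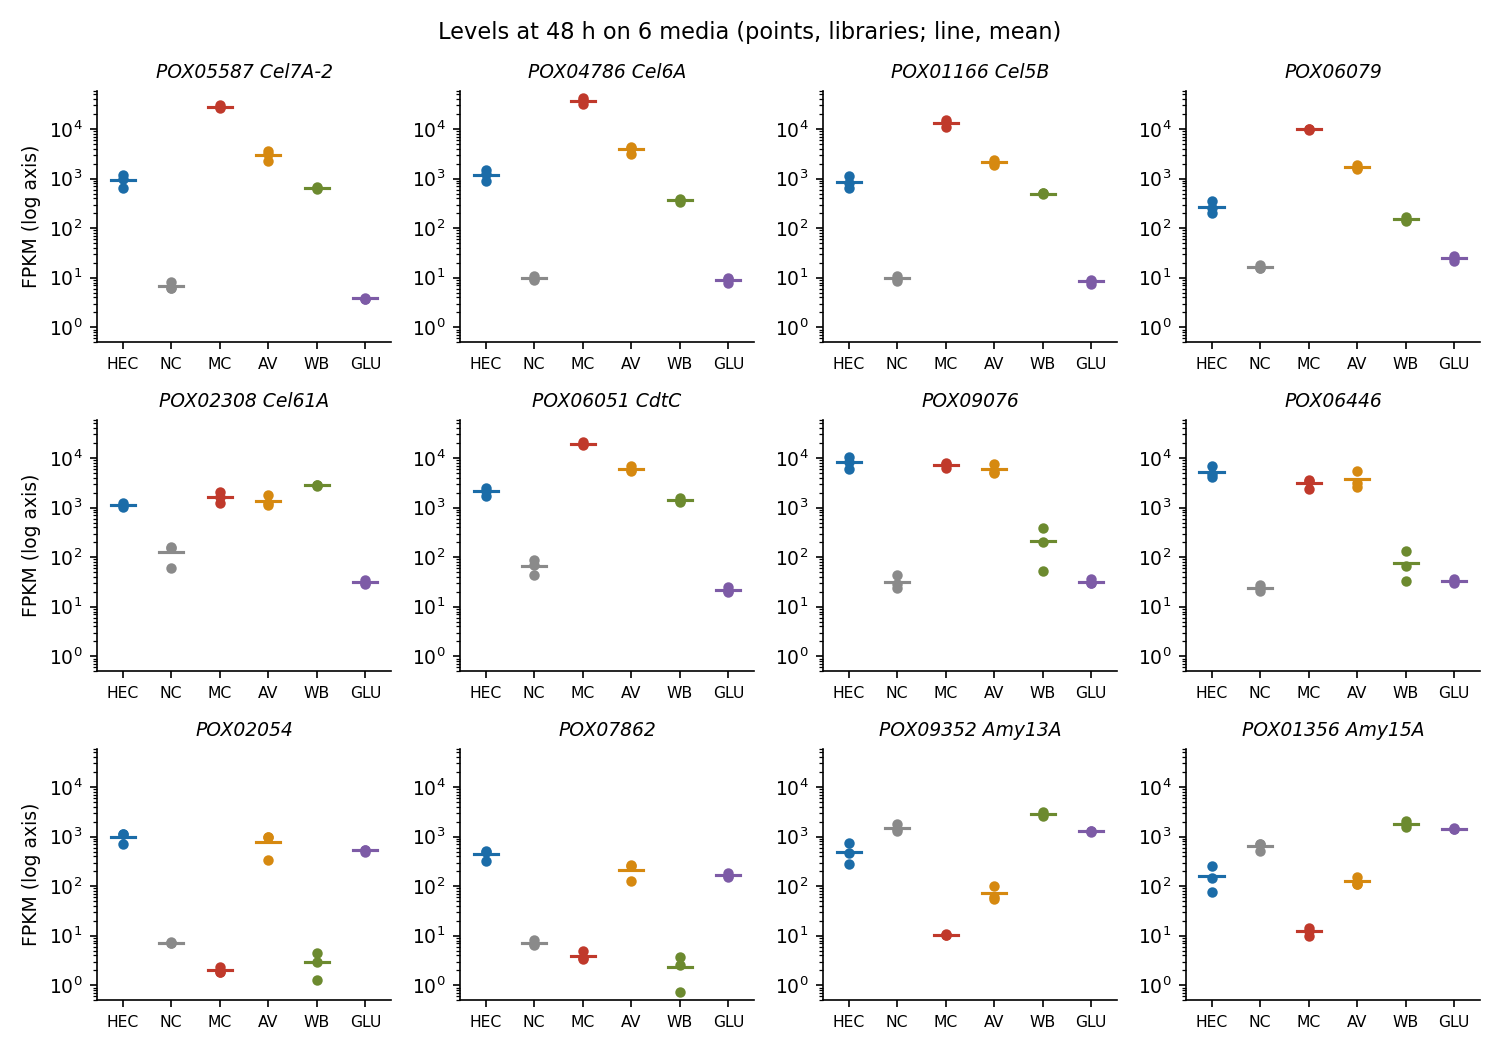
FPKM on a log axis at 48 h on the 6 media for 12 genes; points are libraries and bars the means of 3. *Cel7A-2*, *Cel6A*, *Cel5B* and *POX06079* are highest on MC, then AV, then HEC; *POX09076* and *POX06446* are high on HEC, MC and AV; *POX02054* and *POX07862* are high on HEC, AV and GLU; and *Amy13A* and *Amy15A* are lowest on MC.

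On the 2 media that were not tested against HEC, the levels are given as a description. *Cel6A* measured 334 to 388 FPKM on WB and 7.77 to 9.82 FPKM on GLU at 48 h, so GLU stood near NC and WB between NC and HEC. *Cel61A* was highest on WB, at 2678 to 2905 FPKM. *Amy13A* measured 2609.9 to 3183 FPKM on WB and 1231 to 1319 FPKM on GLU, above every HEC library. *POX09076* measured 53.03 to 391 FPKM on WB and 29.6 to 35.5 FPKM on GLU, both far below HEC.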

How the data were processed

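Conditions and replicate numbers of the 72 libraries were taken from the short names in their labels. The deposited values are FPKM; the authors cleaned the reads (SOAPnuke), mapped them to the HP7-1 genome (HISAT) and to its genes (Bowtie2), and obtained FPKM from RSEM. The submitters' processing notes name BWA 0.7.10-r789, Bowtie2 2.1.0, RSEM 1.2.12 and DESeq2. Genes left out of a file were set to 0. Values were analysed as log2(FPKM + 1) with limma 3.58.1 in R 4.3.3 (trended variance), on the groups of each comparison only, for genes averaging 1 FPKM or more across the 72 libraries; a call needed an unadjusted p of at most 0.05 and an absolute log2 fold change of at least 1, after the study's limits. The exact permutation p of 3 against 3 libraries cannot fall below 0.1, so none is given. The study calls the replicates biological, and no batch is given in the sources used here. The script was tested on simulated data.

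The members, the gene lists and the rule for named genes were chosen with earlier results of these data known. By that rule, genes were named as members of the role lists, as the largest called changes of other lists or of all genes without overlap, as the most abundant transcripts, as runs of consecutive numbers, or as the largest differences in the other 3 tests. Role lists come from the annotations given by the study. Its lists of carbohydrate-active enzymes, transporters, TFs and receptors hold genes it had called against NC on some medium. Most listed genes were thus chosen on these same libraries, and shares called within a list are no independent evidence. Alternatives changed the pseudocount (0.1), the filter, the scaling, the adjustment of p, the libraries in the fit, the replicate block and each replicate in turn.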

Additional observations from a re-analysis of the deposited data

Results flagged for a closer look

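For 27 of the genes named by rule, the difference between HEC and NC itself differed between 48 h and 24 h (interaction term in limma, Benjamini-Hochberg adjusted p of at most 0.05 and an absolute difference of at least 1 on the log2 scale). The rule had named some genes for a large value of this same difference, so the count of 27 is no independent result. Over all 8898 genes tested, 167 passed the same limits. Values below are the log2 fold change at 48 h minus that at 24 h. All 27 were called after rescaling, 25 were called without NC replicate 3 at 24 h, and 24 were called in each fit that left out 1 library; *POX04868*, *POX07573* and *POX05907* were not.

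Among enzymes of plant cell wall breakdown, the difference grew by 3.81 for *POX04786*/*Cel6A*, 2.32 for *POX06147*/*Cel5A*, 1.65 for *POX08484*/*Xyn11B*, 1.54 for the AA9 gene *POX08897* and 1.28 for *POX05587*/*Cel7A-2*, and changed by -1.94 for *POX02308*/*Cel61A*. It grew by 1.19 for *POX03931*, of the 5 consecutive MEivory genes.

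Genes expressed on both media at 24 h and much lower on NC than on HEC at 48 h included *POX02054* (6.48), *POX02055* (3.94), *POX02057* (2.25), *POX02605* (4.95), *POX06307* (4.76) and *POX06308* (2.41). The same was seen for *POX07862* (5.47), *POX07863* (4.91), *POX07864* (3.98) and *POX07865* (4.38). Mean levels at 24 h were, for example, 2348 FPKM on HEC and 1838 FPKM on NC for *POX02054*, and 721 FPKM and 607 FPKM for *POX07862*.

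The difference was smaller or more negative at 48 h for *POX06513* (-3.10), *POX07516* (-2.45), *POX03095* (-2.35), the peptidase gene *POX01929* (-1.74), the facilitator transporter *POX08492* (-1.66), *POX04867* (-1.51), *POX03629* (-1.41), the PQ-loop gene *POX05907* (-1.12), *POX04868* (-1.01) and the putative beta-N-acetylhexosaminidase *POX07573* (-1.01). *POX08492* measured a mean of 991 FPKM on HEC and 5.70 FPKM on NC at 24 h, so it was higher on HEC at both times.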

How the results depend on the processing

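Rescaling by the median of ratios left 153 genes called lower on HEC than on NC in place of 310, and 322 called higher on HEC than on MC in place of 526. With the adjusted p in place of the unadjusted one, the interaction of medium and time was called in 167 genes in place of 324 (80 with a larger and 87 with a smaller value at 48 h), whereas HEC against NC kept 740 calls. No other setting moved a count of the 4 tests by more than 1.5 times; for HEC against NC a pseudocount of 0.1 gave 481 higher and 428 lower, no filter 448 and 325, and all 72 libraries 444 and 319. Leaving out 1 library at a time gave 382 to 494 higher and 277 to 398 lower.

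Of 188 named genes tested, 168 kept their call or its absence after rescaling, 15 lost it and 5 gained one, and no direction reversed under any setting. Many of them were named for large calls in these same libraries, which favours stable calls. Over all genes, 594 of the 751 calls were also made in the same direction after rescaling. Without HEC replicate 3 and NC replicate 1, a setting chosen after seeing the data, 9 lost and 3 gained a call. Same-numbered HEC and NC libraries deviated together only weakly (r = 0.109, 0.276 and 0.04), and differently numbered ones gave -0.338 to 0.232. With 3 libraries a group these values cannot decide whether the numbers pair the libraries. The main fit did not pair them, and the fit with a replicate block called 443 higher and 314 lower. Values near 1 FPKM rest on few reads, absolute depth is unknown, and with 3 libraries a group small changes can be missed.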

Other observations

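Of 361 genes tested from the study's list of carbohydrate-active enzymes, 30 were called higher on HEC at 48 h and 32 lower (16 lower after rescaling). Of 251 transporter genes, 29 were called higher and 19 lower (5 after rescaling). Those shares were 17.2% and 19.1%, against 8.44% of all genes. The study had put both lists together from genes it called against NC in these libraries, so higher shares are no independent result. None of 27 pectin enzyme genes tested was called, against 8.44% of all genes, and 1 was called lower without HEC replicate 3 and NC replicate 1. Their median log2 fold change was -0.31, against -0.22 over all genes. The 30 pectin enzyme genes summed to 0.068 ± 0.00541% of FPKM on HEC and 0.106 ± 0.00263% on NC (SD, n = 3 each), and the libraries did not overlap. Of 12 trehalose and glycogen enzyme genes, 1 was called higher, a share of 8.3% against 8.44% of all genes. This gene, the putative GH65 trehalase *POX08768*, measured 91.7, 211 and 143 FPKM on HEC and 38.6, 62.3 and 55.6 FPKM on NC. Its log2 fold change was 1.44 ± 0.30. Of 18 genes for G-protein-coupled receptors, 2 were called lower and none higher, a share of 11.1% against 8.44% of all genes, and after rescaling 1 was called higher and none lower. The secretin-like receptor gene *POX01120* measured 19.6, 14.3 and 14.5 FPKM on HEC and 35.8, 40.02 and 35.01 FPKM on NC (-1.16 ± 0.14). None of 3 protein homeostasis genes of MEivory was called.

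The most abundant transcripts were shared by both media. *POX01764* measured 51379, 43334 and 41295 FPKM on HEC and 25337, 33898 and 27305 FPKM on NC, a log2 fold change of 0.66 ± 0.19 that was not called although the groups did not overlap. *POX01105* measured 11508, 10525 and 13457 FPKM on HEC and 14149, 11141 and 13721 FPKM on NC, with overlap. The pigment genes *POX01176*, similar to *ArpA*, and *POX01179*, similar to *ArpB*, stood among them, the former with 12089, 9457 and 11349 FPKM on HEC and 14758, 10044 and 13366 FPKM on NC, and both overlapped. At 48 h *POX01764* was much weaker on GLU, at 118 to 131 FPKM, than on HEC, NC, MC or AV.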
